A study of Mus musculus with 6 samples.

Results

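Casein and milk protein genes were examined as a set of 9, chosen as a list of symbols and found by symbol among the 47729 genes of the deposited table: the caseins Csn1s1, Csn1s2a, Csn2 and Csn3, the whey proteins Wap and Lalba, the iron-binding protein Ltf, the milk fat globule protein Mfge8 and the transcription factor Stat5a. RNA had been sequenced from 2 mouse mammary carcinoma lines, 4T1 and 4TO7, which the labels trace to a spontaneous tumour of BALB/c mice. Each line gave 3 libraries, grown in serum-supplemented DMEM without treatment, and the labels name no added hormone, genetic change, age or sex. Whether the 3 libraries of a line came from separate cultures is not stated beyond the growth in triplicate, so p-values measure the spread between these libraries, which may be technical. Established lines are grown populations that may have moved away from the gland they came from, and each line stands here as a single line.

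As background, caseins and whey proteins are the main secreted products of the lactating mammary gland. Prolactin binds its receptor, the kinase JAK2 phosphorylates STAT5A and STAT5B, and these enter the nucleus and act on milk protein genes together with the glucocorticoid receptor, C/EBP-beta, nuclear factor I and ELF5. The caseins lie in a gene cluster, with other genes between Csn3 and the rest. The calcium-sensitive alpha and beta caseins share an origin. Kappa-casein, the product of Csn3, is not one of that group and coats the casein micelle to keep it in solution.

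Libraries held 33605566 to 39072639 reads assigned to genes. Values are normalised read counts, that is, reads divided by a size factor per library, and means are given ± SD with n = 3 per line. The mammary epithelial markers Krt8 and Krt18 were abundant in both lines, whereas Krt19 (0 to 1.99 normalised counts), Krt7 and Epcam (at most 33.8) were near absent from 4TO7; all 6 epithelial markers examined were higher in 4T1. Because these are bulk samples, a smaller share of cells with a transcript and less transcript per cell cannot be told apart. 4TO7 replicate 2 stands apart from its 2 partner libraries in several of the results below and is given separately.

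In brief, a single casein was strongly present. Csn3 was 56.9-fold higher in 4TO7 than in 4T1, while the other caseins, Wap and Lalba had from 0 to 5 reads over all 6 libraries. Mfge8 was abundant in both lines and 2.52-fold higher in 4TO7. Stat5a was present in both lines and did not pass the test. Of the 9 genes 3 passed the low-value filter (at least 10 in at least 3 of the 6 libraries), namely Csn3, Mfge8 and Stat5a, and the other 6 were not tested. Called means an adjusted p under 0.05 from limma, a linear model fitted to log2(value + 1) over all genes and adjusted by Benjamini-Hochberg. Of the members, 2 were called higher in 4TO7, where 23.9% of the 14276 genes tested were called in that direction, and 0 were called higher in 4T1, against 25.1% of genes (49% in either direction). With equal totals per sample, 2968 genes were called toward 4T1 and 4060 toward 4TO7, against 3585 and 3412 here. With 3 members tested, these counts do not separate the set from other genes.

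**Figure D1:**
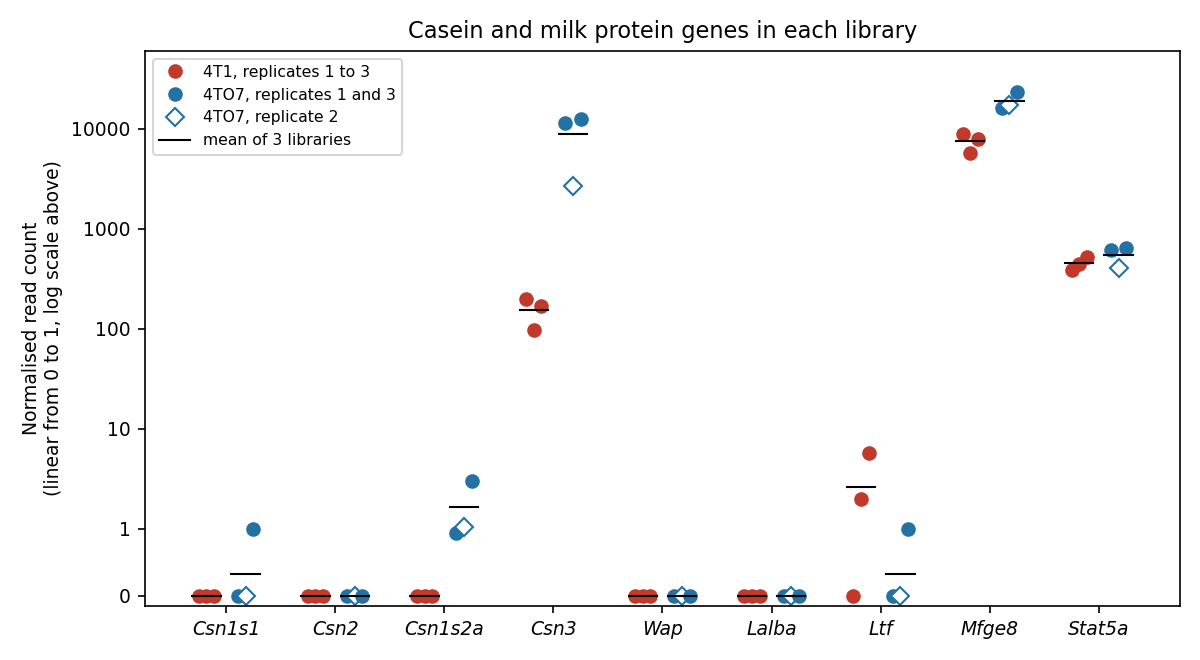
Normalised read counts of the 9 casein and milk protein genes (vertical axis, linear from 0 to 1 and logarithmic above) in each library, with 4T1 in red, 4TO7 in blue, 4TO7 replicate 2 as an open diamond and the mean of 3 libraries as a bar. Csn3 lies between 97.6 and 198 in 4T1 and between 2663 and 12485 in 4TO7, while Csn2, Wap and Lalba lie at 0 in all 6 libraries.

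Csn3 encodes kappa-casein (ENSMUSG00000001622; GRCm38 chromosome 5, 87925579 to 87932665, plus strand; protein-coding). It had 198, 97.6 and 168.9 normalised counts in 4T1 replicates 1 to 3. It had 11261, 2663 and 12485 in 4TO7 replicates 1 to 3. The lines did not overlap: the lowest 4TO7 library, replicate 2, was still above every 4T1 library. Such a gap between lines, with no overlap in either direction, was present in 58.4% of genes tested. Mean levels were 154.8 ± 51.5 in 4T1 and 8803 ± 5352 in 4TO7, which gave a log2 fold change (4T1 minus 4TO7) of -5.59 ± 0.56 (SE; limma adjusted p = 8.81e-05). Only 143 of the 14276 genes, 1.00%, had a fold change at or below this one, against a median over all genes of 0.03. In the authors' deposited table, which gives 4TO7 over 4T1, the log2 fold change of Csn3 is 5.83 with a standard error of 0.687.

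Within 4TO7, Csn3 was uneven. Replicates 1 and 3 were 4.23-fold and 4.69-fold above replicate 2. On the log2 scale replicate 2 lay below the mean of its partners by a difference of -2.15, and 1.09% of the genes tested lay as low or lower in that library. In 4T1 the range was narrower on the log scale, with all 3 libraries between 97.6 and 198. Without 4TO7 replicate 2 the fitted difference grew from 48.3-fold to 79.4-fold (log2 fold change -6.31; limma adjusted p = 4.01e-07).

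Per kilobase of exon, Csn3 averaged 60.4 ± 20.1 normalised counts in 4T1 and 3437 ± 2090 in 4TO7. Ranked by that level among 21730 protein-coding genes, it stood at position 9741 in 4T1 and 564 in 4TO7. Of the 14897 with a read in 4T1, 34.6% lay below Csn3, and of the 15022 with a read in 4TO7, 96.2%. Library by library, its position in 4TO7 was 400, 2651 and 347 in replicates 1 to 3. Kappa-casein transcript thus ranked higher in every 4TO7 library than in any 4T1 library, where its positions were 9361, 10134 and 9714. Lengths came from GENCODE's basic transcripts; with the exons of all annotated transcripts the 4T1 level was 37.3 and the 4TO7 level 2120.

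The alpha and beta caseins were all but unread. Csn1s1, which encodes alpha-S1-casein (chromosome 5, 87666208 to 87682578, plus strand), had 0 reads in 5 libraries and 1 read in 4TO7 replicate 3. Csn2, the beta-casein gene (chromosome 5, 87692624 to 87699630, minus strand), had 0 reads in all 6 libraries. Csn1s2a, an alpha-S2-like casein (chromosome 5, 87774567 to 87788797, plus strand), had 0 reads in each 4T1 library and 1, 1 and 3 reads in 4TO7 replicates 1 to 3. A count of 0 over the 219446632 reads of the 6 libraries allows up to 3 reads, a one-sided limit. The 5 reads of Csn1s2a have an exact two-sided 95% Poisson interval of 1.62 to 11.7 reads, and intervals here cover counting error only. The 4TO7 libraries all lay above the 4T1 libraries for Csn1s2a. Without the low-value filter limma called it higher in 4TO7 (log2 fold change -1.33, adjusted p = 0.0353), a call that rests on those 5 reads. The authors' deposited comparison, for which the notes name DESeq2, gives Csn1s2a a p of 0.208 and no adjusted p.

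Sequences upstream of the casein genes are shown because these caseins had from 0 to 5 reads and STAT5 is known to act on them in the gland. RefSeq promoter windows on GRCm38.p6 (250 bases before to 50 after the start) were at hand for 8 of the 9 genes, Csn3 being the other. The STAT-type motif TTCNNNGAA, searched on both strands (it reads the same on each), occurred in the windows of 3 members, Csn1s1, Csn2 and Csn1s2a, and in 8.30% of all 32851 windows of that length. It began 100 bases before the start of Csn1s1 and 93 bases before the RefSeq start of Csn2, which lies inside the outermost GENCODE transcript of that gene. In Csn1s2a it began at base 21 of the RefSeq transcript, counting the start as base 1, and 97 bases before the start in GENCODE release 21 of the mouse series. The 250 bases before the RefSeq start are printed 5′ to 3′ on the strand of the gene, with the motif in capitals, for Csn1s1 (chr5:87665958-87666207, plus strand) and Csn2 (chr5:87699426-87699675, minus strand), followed by the last 30 bases of the Csn1s2a window (chr5:87774470-87774499, plus strand).
Csn1s1: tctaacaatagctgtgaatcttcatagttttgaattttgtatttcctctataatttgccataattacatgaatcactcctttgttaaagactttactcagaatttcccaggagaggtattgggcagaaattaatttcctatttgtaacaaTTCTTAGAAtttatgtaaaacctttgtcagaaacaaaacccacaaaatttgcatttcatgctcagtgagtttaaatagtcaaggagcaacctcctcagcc
Csn2: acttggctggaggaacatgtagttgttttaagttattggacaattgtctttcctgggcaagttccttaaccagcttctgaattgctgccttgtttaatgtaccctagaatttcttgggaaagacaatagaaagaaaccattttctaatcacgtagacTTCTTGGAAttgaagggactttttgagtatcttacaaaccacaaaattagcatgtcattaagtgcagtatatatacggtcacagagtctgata
Csn1s2a: TTCTTAGAAttacaatgacttttaggtatt

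Mfge8, an abundant member in both lines, had no match to TTCNNNGAA in its window, and neither had Wap, Lalba, Ltf or Stat5a. Its 250 bases (chr7:79149061-79149310, minus strand) are printed for contrast with the caseins. A C/EBP-type motif, TTGCNNAA on either strand, occurred in the window of Ltf alone among the 8 members and in 10.8% of all windows. A match to letters is a description of the window and not a site.
Mfge8: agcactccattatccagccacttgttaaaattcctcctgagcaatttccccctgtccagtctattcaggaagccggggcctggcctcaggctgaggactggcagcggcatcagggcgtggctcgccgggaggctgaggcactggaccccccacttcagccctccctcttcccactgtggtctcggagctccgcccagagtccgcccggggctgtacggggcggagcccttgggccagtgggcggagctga

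Genes around Csn3 had few or no reads. GENCODE places 41 other genes within 500 kb of the span of Csn3, a window chosen after the data were seen, all of them in the table, and 29 of them had 0 reads in every library. None of the 41, which include pseudogene, snoRNA and miRNA entries, passed the low-value filter. Over the whole table, 25124 of 47729 genes had a read in any library and 14276 passed that filter. Of the 12 with a read, 7 were read in 4TO7 alone and 3 in 4T1 alone. Each of these had from 1 to 9 reads in all. The share of all genes read in 1 line alone was not counted, so these counts do not set the neighbours apart. The highest value of any neighbour in any library was 5.61, reached by Sult1b1, a sulfotransferase, and by Amtn, an enamel protein gene, both in 4TO7 replicate 1. Csn1s2b, the remaining casein of the cluster, had 3, 0 and 1 reads in 4TO7 replicates 1 to 3 and 0 in 4T1. Odam, the enamel-associated gene next upstream of Csn3 among the protein-coding genes, had 2 reads in 4TO7 replicate 3 alone. The antisense gene 1700066N21Rik, whose span covers Csn3, had 0 reads in all libraries.

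**Figure D2:**
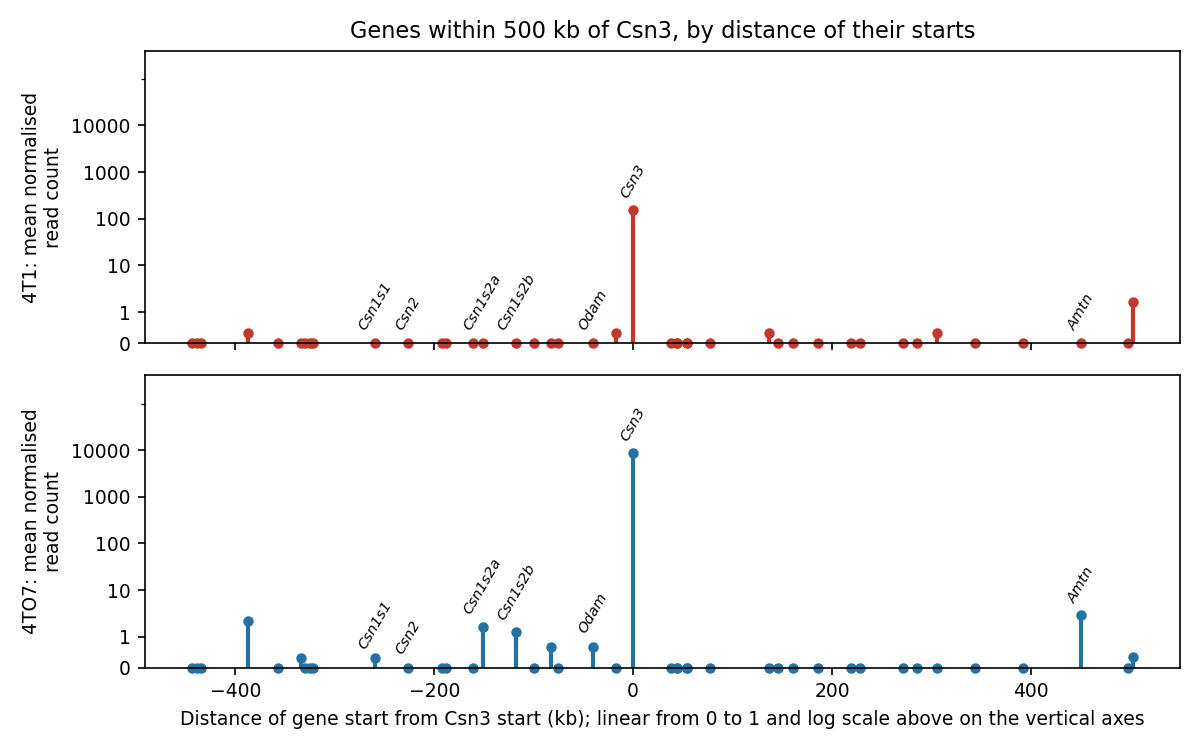
Mean normalised read count (vertical axes, linear from 0 to 1 and logarithmic above) of each gene within 500 kb of Csn3, placed by the distance of its start from that of Csn3 in kb, for 4T1 (upper panel) and 4TO7 (lower panel). Csn3 stands alone in both panels, at 154.8 in 4T1 and 8803 in 4TO7.

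Summed over the 4 other caseins, 4TO7 replicates 1 to 3 had 4, 1 and 5 reads and the 4T1 libraries had 0. At 1 to 5 reads a library, no order among the 4TO7 libraries is measurable.

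The whey proteins were unread. Wap, whey acidic protein (ENSMUSG00000000381; chromosome 11, 6635482 to 6638637, minus strand), and Lalba, alpha-lactalbumin, the regulatory subunit of lactose synthase (ENSMUSG00000022991; chromosome 15, 98480400 to 98482721, minus strand), each had 0 reads in all 6 libraries. B4galt1, the catalytic subunit with which alpha-lactalbumin pairs, named after its values were seen, was well expressed at 4323 ± 872 in 4T1 and 4364 ± 741 in 4TO7 (adjusted p = 0.939). Of the pair that makes lactose, only the transcript of the catalytic subunit was detected.

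Ltf encodes lactoferrin, an iron-binding protein of milk and of neutrophil secondary granules (ENSMUSG00000032496; chromosome 9, 111019271 to 111042767, plus strand). Replicates 1 to 3 held 0, 2 and 6 reads of it in 4T1, and 0, 0 and 1 in 4TO7. The lines overlapped at 0. The ratio of reads, 8 in 4T1 to 1 in 4TO7, was 7.31 after scaling by the total reads of each line. Its exact 95% interval was 0.979 to 324. Of 10 neutrophil markers 6 were at 0 in every library, Camp, Ly6g and S100a9 among them, and the 10 summed to between 4.98 and 10.1 in 4T1 and between 15.9 and 42.8 in 4TO7. Most of the 4TO7 sum was S100a8, at 29.8 ± 14.7, and the part of such cells in the reads of Ltf was not tested.

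Mfge8 encodes a secreted glycoprotein of the milk fat globule membrane, also known as lactadherin, which bridges phosphatidylserine on dying cells to integrins on phagocytes (ENSMUSG00000030605; chromosome 7, 79133768 to 79149060, minus strand). It had 8768, 5699 and 7940 normalised counts in 4T1 replicates 1 to 3. It had 16012, 17394 and 22966 in 4TO7 replicates 1 to 3. Every 4TO7 library was above every 4T1 library, and 4TO7 replicate 2 lay between its partners. The means were 7469 ± 1588 and 18790 ± 3681, a log2 fold change of -1.34 ± 0.20 (SE; limma adjusted p = 0.000974), and 10.4% of genes tested had a fold change at or below this one. Per kilobase of exon it was the highest member in both lines, at 3513 ± 747 in 4T1 and 8838 ± 1732 in 4TO7, positions 662 and 162 among protein-coding genes; counted over the exons of all transcripts its levels were 1591 and 4003.

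Stat5a encodes the prolactin-activated transcription factor (ENSMUSG00000004043; chromosome 11, 100859351 to 100885169, plus strand). It had 388, 445 and 520.3 normalised counts in 4T1 replicates 1 to 3. It had 611, 401 and 644 in 4TO7 replicates 1 to 3. Replicates 1 and 3 of 4TO7 were above all 4T1 libraries and replicate 2 fell inside the 4T1 range. The means were 451 ± 66.2 and 552 ± 131.5, a log2 fold change of -0.27 ± 0.23 (SE), which did not pass (limma adjusted p = 0.357). Without 4TO7 replicate 2 it was -0.48 with an adjusted p of 0.0515. Neither value shows that the lines are alike. Per kilobase of exon the transcript averaged 113.8 ± 16.7 in 4T1 and 139 ± 33.2 in 4TO7, far below Mfge8 in both lines and, in 4TO7, below Csn3; over the exons of all transcripts it averaged 63.3 and 77.4.

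In 4TO7 the order of levels per kilobase was Mfge8, Csn3, Stat5a and then the members below the low-value filter. Replicate 2 kept that order. In 4T1 Stat5a and Csn3 changed places, at 113.8 ± 16.7 and 60.4 ± 20.1.

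Genes of prolactin and STAT5 signalling were then read from a list of 16, of which 14 were tested. The list pools receptors, kinases and transcription factors with inhibitors, so its counts and median give no direction of signalling. As fitted, 5 were called toward 4T1 and 5 toward 4TO7, but the balance depended on scaling and tool, in both directions. It was 3 and 7 with equal totals per sample, 4 and 7 with edgeR and 5 and 7 with DESeq2. With quantile normalisation the counts were 4 and 5, and with limma without trend and not robust 4 and 3. Over all genes 25.1% were called toward 4T1 and 23.9% toward 4TO7. The median log2 fold change of those tested was -0.36, beside 0.03 over all genes. Those with the largest fold changes were Cish, Socs2 and Socs1, feedback inhibitors of cytokine receptors, all higher in 4TO7, and Cav1, the caveolin, higher in 4T1. Cish, a STAT5 target gene, had 120.2 ± 17.4 in 4T1 and 260.7 ± 107 in 4TO7, with replicate 2 at 137.3 beside 332 and 312.5 in replicates 1 and 3 (log2 fold change -1.02; adjusted p = 0.0413). Socs2 had 342 ± 61.7 and 701 ± 238 (log2 fold change -0.99; adjusted p = 0.014), and Socs1 had 156.6 ± 38.4 and 294 ± 75.0.

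The prolactin receptor itself was close to absent. Prlr, the prolactin receptor, chosen here after its values were seen like the other genes of this paragraph, had 0, 1 and 1 reads in 4T1 and 0 in every 4TO7 library. Jak2, the receptor's kinase, was 1.70-fold higher in 4T1 at 5225 ± 1106 against 3079 ± 339 (adjusted p = 0.0108). Stat5b, the close relative of Stat5a, stood at 2194 ± 210 in 4T1 against 1981 ± 343 and was not called (adjusted p = 0.465). Ghr, the growth hormone receptor of the same list, was read in both lines. It had 2126 ± 430 in 4T1 and 2618 ± 1190 in 4TO7 and was not called (limma adjusted p = 0.573).

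The calls of this list were sensitive to single libraries. The 5 higher in 4T1 became 3 without 4T1 replicate 2 or 3 and 2 without 4TO7 replicate 1 or 3, and the 5 higher in 4TO7 became 1 without 4T1 replicate 1, 3 without 4T1 replicate 2, 4T1 replicate 3 or 4TO7 replicate 1, and 2 without 4TO7 replicate 3. Leaving out any library other than 4TO7 replicate 2 ended the calls of Cish (adjusted p 0.0634 to 0.143) and Cav1 (0.0563 to 0.142); that of Socs1 ended without 4T1 replicate 1 (0.065), 4T1 replicate 3 (0.0994), 4TO7 replicate 2 (0.0513) or 4TO7 replicate 3 (0.0933), and that of Socs2 without 4T1 replicate 1 (0.0592).

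Transcription factors that act on milk genes in the gland were largely present. Of 14 listed 12 were tested; 4 were called toward 4T1 and 5 toward 4TO7 (3 without 4TO7 replicate 1), beside 25.1% and 23.9% of all genes, and the median log2 fold change was -0.11. Ehf, an epithelial ETS factor, had 381 ± 227 in 4T1 and 4.19 ± 2.83 in 4TO7. Esr1, the oestrogen receptor, was 7.44-fold higher in 4T1, and Cebpd, a C/EBP family member, 3.02-fold higher in 4T1. Id2, an inhibitor of helix-loop-helix factors, was 2.29-fold higher in 4TO7.

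The partners of STAT5 at milk genes are given by value, named after those values were seen. Nr3c1, the glucocorticoid receptor, had 3254 ± 933 in 4T1 and 3444 ± 385 in 4TO7 (adjusted p = 0.684). Cebpb, which encodes C/EBP-beta, was 1.86-fold higher in 4TO7 at 7978 ± 2230 (adjusted p = 0.0118). Nfib, a nuclear factor I gene, was 1.45-fold higher in 4TO7, a call lost without 4TO7 replicate 1 (0.0631) or 4TO7 replicate 3 (0.0688). Of the other nuclear factor I genes listed, Nfia was 1.78-fold higher in 4TO7 (limma adjusted p = 0.00937). Nfix, at 17131 ± 1263 in 4T1 and 18444 ± 2390 in 4TO7, was not called (0.579). Elf5, the ETS factor of the secretory lineage, had 0 reads in 4T1 and 1, 0 and 2 reads in 4TO7 replicates 1 to 3, and Pgr, the progesterone receptor, had 0 in all.

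**Figure D3:**
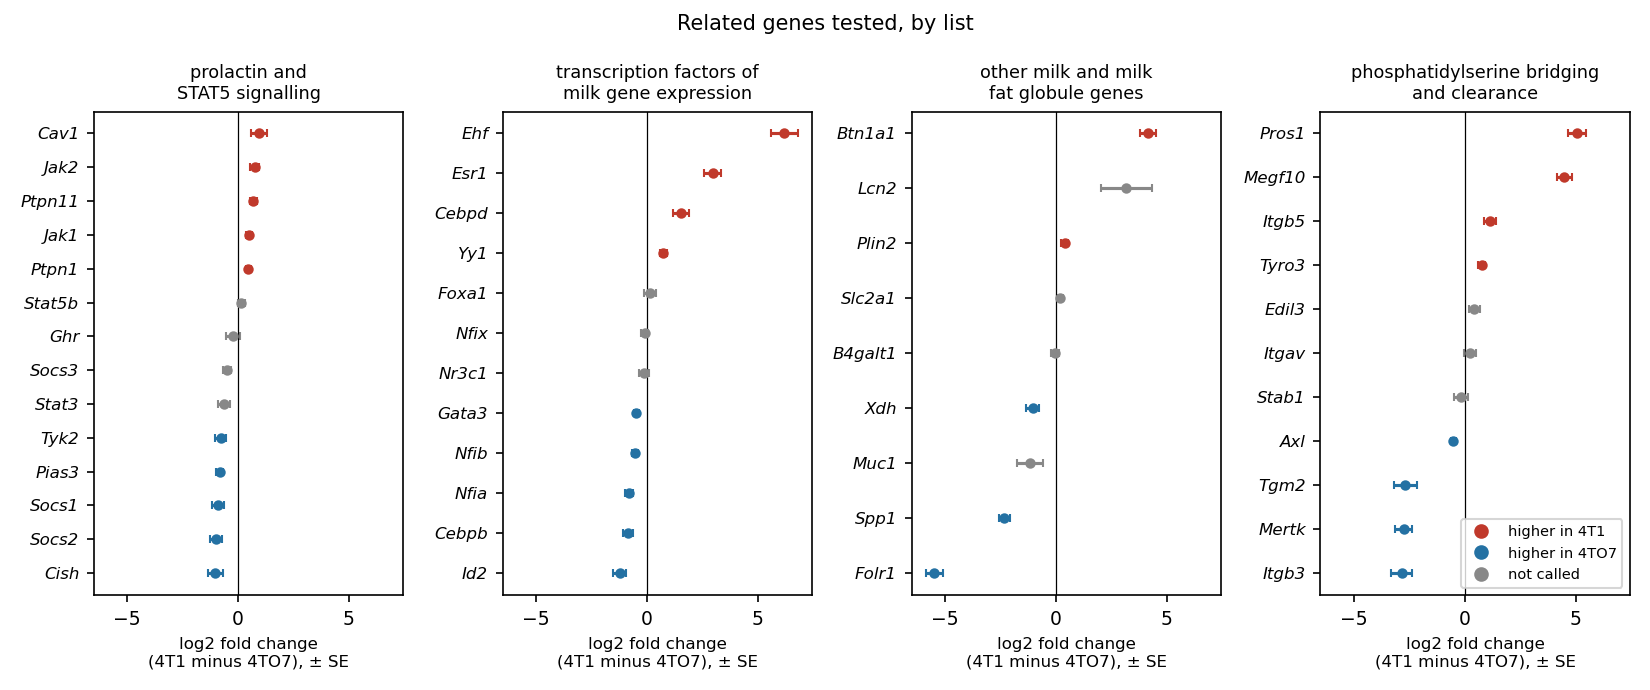
Log2 fold change (4T1 minus 4TO7, horizontal axis, ± SE) of every tested gene in 4 lists of related genes, in red where called higher in 4T1, in blue where called higher in 4TO7 and in grey where not called. Each list holds genes on both sides of 0. The prolactin and STAT5 list has 5 and 5 called here, 3 and 7 with equal totals per sample, and 4 and 3 with limma without trend and not robust.

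Other products of the lactating gland were mixed. Of 23 further milk and milk fat globule genes 9 were tested; 2 were called toward 4T1 and 3 toward 4TO7, beside 49% of all genes called in either direction, and the median log2 fold change was -0.02. Glycam1, Wfdc18, Cel and Fabp3 had 0 reads in all libraries. Spp1, osteopontin, a phosphoprotein found in milk and made by many tumours, had 29021 ± 3323 in 4T1 and 150313 ± 49386 in 4TO7 (log2 fold change -2.32; adjusted p = 0.000142), with 4TO7 replicate 2 at 93543 against 174026 and 183371 in its partners.

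Of the milk fat globule membrane proteins, Btn1a1, butyrophilin, had 50.4 ± 8.31 in 4T1 and 1.97 ± 0.97 in 4TO7. Xdh, its partner xanthine dehydrogenase, was 2.05-fold higher in 4TO7 at 2726 ± 944, a call lost without 4T1 replicate 1 (0.0811), 4T1 replicate 2 (0.0726) or 4TO7 replicate 3 (0.0546). The globule proteins Mfge8, Xdh and Btn1a1 thus did not share a direction. Folr1, a folate receptor, had 106.3 ± 49.5 in 4TO7 and 1.32 ± 0.58 in 4T1. Lcn2, a siderophore-binding protein, named after its values were seen, had 1799 ± 549 in 4T1 and 639, 18.9 and 559 in 4TO7 replicates 1 to 3 (adjusted p = 0.0503; 0.000728 without 4TO7 replicate 2, 0.0265 without 4TO7 replicate 1 and 0.0319 without 4TO7 replicate 3). Its log2 fold change was 3.18, and 1.54 without 4TO7 replicate 2. Lcn2 was also called with the replicate block (0.0308), quantile normalisation (0.0418) and a pseudocount of 5 (0.044). In the other 10 alternatives it stayed uncalled. Among these were no low-value filter (0.2325), DESeq2 (0.1151) and each 4T1 replicate left out (0.1178 to 0.1243). The 2 calls toward 4T1 were Btn1a1 and Plin2, the latter named after its values were seen (1.31-fold, limma adjusted p = 0.0403). Btn1a1 kept its call in all 15 alternatives in which it was tested. The calls became 1, that of Btn1a1, without 4T1 replicate 1, 2 or 3, and also with equal totals, limma without trend or edgeR. They were also 1 with the stricter filter, under which Btn1a1 was not tested. Without 4TO7 replicate 1 or 2 and with quantile normalisation the calls stayed at 2. In those settings the 2 were Btn1a1 and Lcn2, so Plin2 was not called there either.

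Partners of Mfge8 in the recognition of phosphatidylserine went both ways. Of 14 listed 11 were tested; 4 were called toward 4T1 and 4 toward 4TO7, beside 25.1% and 23.9% of all genes, and the median log2 fold change was 0.26. Itgb3, a subunit of the integrin that binds lactadherin, was 7.78-fold higher in 4TO7, at 3403, 1222 and 4674 in replicates 1 to 3 against 292 to 580 in 4T1. Itgb5, the subunit of the other lactadherin integrin, named after its values were seen, was 2.11-fold higher in 4T1 at 3753 ± 656 against 1779 ± 664. Mertk, a phagocytic receptor kinase, was 7.42-fold higher in 4TO7, while Pros1, a bridging ligand of that receptor family, was 33.7-fold and Megf10, an engulfment receptor, 26.2-fold higher in 4T1. Tgm2, a transglutaminase that works with lactadherin and integrin, also named after its values were seen, had 15068, 4032 and 18843 in 4TO7 replicates 1 to 3 and 1691 ± 443 in 4T1.

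Genes whose log2 values followed each tested member over the 6 libraries most closely, by Pearson's r, were sought among 11630 other genes tested. For Csn3 they were Ank, a membrane protein of pyrophosphate transport (r = 0.999), and Pbx2, a homeobox gene (r = 0.999), and 187 genes had r over 0.99. Ank had 29887, 20633 and 30838 in 4TO7 replicates 1 to 3 and 11003 ± 858 in 4T1, so it shared the low replicate 2 at a far smaller fold change (-1.28 on the log2 scale). For Mfge8 they were Dtnbp1 (r = 0.999) and Akap6 (r = 0.996), and for Stat5a Cyp4f13 (r = 0.998) and Gbp2 (r = 0.995). With 6 libraries in 2 lines, the difference between lines carries much of r for Csn3 and Mfge8, and the genes share their libraries and depth.

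Markers of other cell types were mostly low. Of 6 adipocyte markers 0 were tested, and the list summed to at most 7.06 in 4T1 and 17.9 in 4TO7; of 4 endothelial markers 0 were tested. Ptprc, the pan-leukocyte marker, had at most 4.98 normalised counts, and Krt5 and Acta2, which mark myoepithelial cells, at most 1.05, although Krt14 stood between 1094 and 1585 in 4T1. Among leukocyte markers, Adgre1 and Cd3e were at 0 in all libraries, and Csf1r and Cd68 were called higher in 4T1; the list summed to 251 to 470.1 in 4T1 and 93.6 to 165.2 in 4TO7, nearly all of it Cd68.

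Csn3 and Mfge8 kept their calls and direction, and Stat5a stayed uncalled, under all 16 alternatives tried, as the plot by processing shows.

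**Figure D4:**
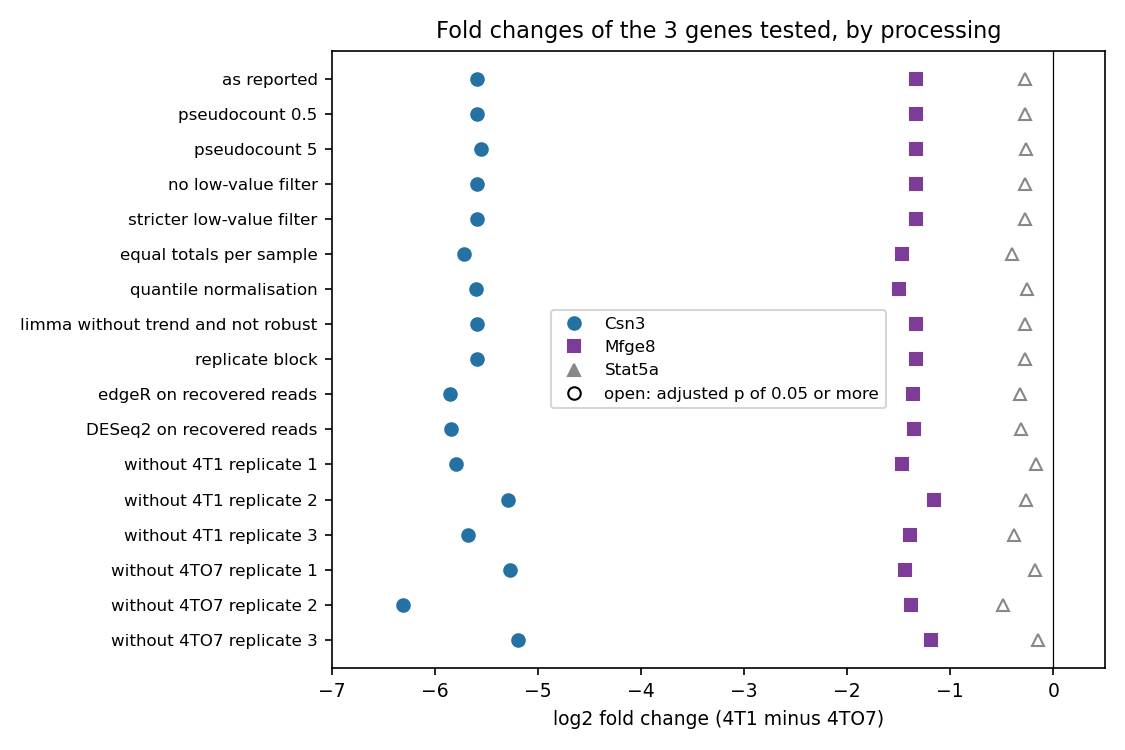
Log2 fold change (4T1 minus 4TO7, horizontal axis) of Csn3, Mfge8 and Stat5a as reported and under 16 alternatives (vertical axis), with open symbols where the adjusted p was 0.05 or more. Csn3 ranges from -6.31 to -5.20, Mfge8 from -1.50 to -1.15 and Stat5a from -0.48 to -0.14.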

How the data were processed

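RNA sequencing of 3 libraries each of 4T1 and 4TO7 was read from the authors' deposited table of normalised counts. The submitters' processing notes name STAR 2.5, featureCounts 1.5 and DESeq2, with GRCm38 as build. The annotation release and strand setting are not given in the sources used here. The sample columns are a deposited signal, reads scaled by a library size factor (0.954 to 1.07), per the file headers and the values; 100% of values were whole reads within 1e-06. The deposited table also holds the authors' log2 fold change and standard error, a score that is their ratio, and a p-value with its adjusted p-value.

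Genes reaching 10 in 3 or more of the 6 libraries were kept and log2(value + 1) was compared with limma 3.58.1 in R 4.3.3 (intensity trend, robust), two-sided, with Benjamini-Hochberg adjustment over all genes tested and a threshold of 0.05. The scale understates changes of low genes. A fold without log2 is the ratio of line means unless called fitted. Members, lists and rules were chosen with earlier results of these data known. Text names all 9 members, up to 4 called genes with the largest fold change per list, genes at 0 and the 2 genes most alike each tested member; other genes, among them the cell type markers and neighbours of Csn3 that are named singly, were chosen after their values were seen. Lists of related genes are described by counts, with no set test. Where a symbol had 2 entries the higher was used. Exon lengths came from GENCODE release 21 (GRCm38) and promoters from RefSeq (GRCm38.p6). edgeR 4.0.16 and DESeq2 1.42.0 were run on recovered reads as alternatives, and the pipeline was tested on simulated data.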

Additional observations from a re-analysis of the deposited data

How the results depend on the processing

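The 16 alternatives covered pseudocount, filter, scaling, variance model, replicate block, count test and single libraries left out. Under them 0 members were called toward 4T1 and 2 toward 4TO7, or 3 when the low-value filter was dropped and Csn1s2a was added. Without that filter 4004 of 25124 genes were called toward 4TO7. Genes called ranged from 5242 to 8064 over libraries left out, against 6997. Equal totals per sample moved the median log2 fold change of all genes by -0.13, and Csn3, Mfge8 and Stat5a then stood at -5.72, -1.47 and -0.40. With edgeR they stood at -5.86, -1.36 and -0.33. The sign of B4galt1, which was never called, turned without 4T1 replicate 1 (0.13) and without 4TO7 replicate 3 (0.10), and that of Nr3c1 without 4T1 replicate 1 (0.14); over single libraries left out they ranged from -0.16 to 0.13 and from -0.28 to 0.14, and the cause was not tested. The labels name no batch for same-numbered libraries. Their deviations from the line means correlated across genes at -0.01, 0.27 and 0.33 for numbers 1 to 3. Libraries numbered 2 and 3 correlated best with their own number in the other line, and those numbered 1 did not. Whether same-numbered libraries shared a batch was not tested. With the replicate block 7750 genes and 2 members higher in 4TO7 were called, with Csn3 at -5.59 (adjusted p = 4.27e-06). Cav1 was also not called with equal totals (0.0646), quantile normalisation (0.0566), limma without trend (0.0754) or edgeR (0.0599), Cish with limma without trend (0.0511) and Socs1 with quantile normalisation (0.0714). Depth limits the unread members: a count of 0 over all libraries allows up to 3 reads.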
